A study of Rattus norvegicus with 12 samples.

Results

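The genes described here make serine, folate-bound carbon units, proline and asparagine: Phgdh, Psat1, Psph, Shmt1, Shmt2, Mthfd1l, Mthfd2, Aldh18a1, Pycr1 and Asns. They were taken by symbol, 10 of the 32623 genes in the deposited table, and all 10 had reads; 18448 genes had at least 1 count in any library. Shmt2 was picked because its level was higher in hearts of chrysin-treated rats, so its values in that group are a description, with no test. RNA was measured by sequencing in 12 heart libraries from male Sprague Dawley rats, labelled as 3 groups with 4 libraries each. The labels give the rats an age of 5 weeks and a weight of 130 to 150 g. That cannot be their age when the hearts were taken, since the CTRL rats alone spent 8 weeks in normoxia. The CTRL animals lived in normoxia for 8 weeks, and no treatment is given for them. SU_HX rats received SU-5416, an inhibitor of VEGF receptors, subcutaneously at 20 mg/kg, were exposed to hypoxia at 10% oxygen for 3 weeks with 2 further weeks in normoxia, whose order the labels leave ambiguous, and then took vehicle for 3 weeks under normoxia. Chrysin rats went through the same model and took the flavonoid chrysin, daily at 100 mg/kg, in place of vehicle for those 3 weeks. SU-5416 with hypoxia is a rat model of pulmonary hypertension, which loads the right ventricle. The labels name the tissue as heart without a chamber, and do not say that each library is a separate rat, so the p-values measure the spread between these libraries, which may be technical. No group received chrysin without the model, and none received SU-5416 or hypoxia alone.

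Serine is made from a glycolytic intermediate in 3 steps, by Phgdh, Psat1 and Psph in that order. Serine hydroxymethyltransferases then pass a carbon from serine to folate, Shmt1 in the cytosol and Shmt2 in mitochondria, where Mthfd2 oxidises the folate-bound carbon and Mthfd1l releases it as formate for purine and thymidylate synthesis. Aldh18a1 and Pycr1 build proline from glutamate, and Asns amidates aspartate to asparagine. In other mammalian cells several of these genes are known targets of ATF4, a transcription factor of the integrated stress response, and proline is a main component of collagen.

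Promoter windows of the 3 genes whose values or motifs are discussed further are shown for reference, from 250 bases before to 50 bases after the start of each gene, as RefSeq places it on the GRCr8 assembly. These are Asns at chr4:36769366-36769665, Mthfd2 at chr4:117380301-117380600 and Pycr1 at chr10:106420763-106421062, all on the minus strand and read 5′ to 3′ along the gene. Capitals mark matches on either strand to any of 4 motifs: TGATGNAA, the composite site of ATF4 and C/EBP factors; CACGTG, the E-box bound by Myc and others; CCAAT, the CCAAT box; and TGACNNNGC, the core of the antioxidant response element.
Asns: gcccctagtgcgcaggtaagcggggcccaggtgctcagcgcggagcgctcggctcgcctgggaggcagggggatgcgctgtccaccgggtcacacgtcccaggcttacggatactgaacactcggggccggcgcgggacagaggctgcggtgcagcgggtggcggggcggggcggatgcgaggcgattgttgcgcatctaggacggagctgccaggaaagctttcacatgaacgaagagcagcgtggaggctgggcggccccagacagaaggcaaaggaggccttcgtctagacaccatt
Mthfd2: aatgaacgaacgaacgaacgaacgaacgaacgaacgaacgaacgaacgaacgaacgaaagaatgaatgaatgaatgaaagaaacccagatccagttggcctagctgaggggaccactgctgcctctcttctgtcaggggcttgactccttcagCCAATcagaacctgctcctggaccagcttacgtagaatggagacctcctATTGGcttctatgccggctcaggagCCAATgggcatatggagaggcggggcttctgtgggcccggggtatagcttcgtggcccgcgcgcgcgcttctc
Pycr1: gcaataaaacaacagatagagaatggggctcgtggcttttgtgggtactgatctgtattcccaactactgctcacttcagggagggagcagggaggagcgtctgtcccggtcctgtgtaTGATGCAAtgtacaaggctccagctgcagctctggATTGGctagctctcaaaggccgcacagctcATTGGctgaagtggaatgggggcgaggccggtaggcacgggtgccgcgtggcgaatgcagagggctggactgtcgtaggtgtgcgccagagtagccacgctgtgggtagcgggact
The Pycr1 window held TGATGNAA once, 131 bases before the start, and CCAAT at 2 places. The Mthfd2 window held CCAAT at 3 places and the Asns window held none of the 4 motifs. Of the 10 genes, 9 had a window in the table. TGATGNAA was in 1 of the 9, Pycr1, and in 3.98% of all 33469 windows. CACGTG was in 1 of the 9, Shmt1, against 6.42% of all windows, and TGACNNNGC in 1 of the 9, Phgdh, against 12.1%. CCAAT was in 5 of the 9, against 37.5% of all windows. The motifs do not overlap one another in these 3 windows, and a match is a description of letters and not of binding.

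Total counts per library lay between 4712077 and 5443100 in CTRL, 4036489 and 5797763 in SU_HX and 3997306 and 6009798 in Chrysin. A pair of libraries stood apart, and results are given with and without them: library 1 of SU_HX had 63.4% of its unique nuclear reads in introns, against 42.6% to 50% in the others, and library 3 of Chrysin had a level of 120 CPM (counts per 1000000 of the scaled library total) of Nppa, the stress-induced natriuretic peptide, against 1292.7 to 7084.1 CPM in the other model libraries. Cardiomyocyte markers were abundant in all libraries, with 7 listed genes summing to between 13750.2 and 68015.0 CPM. The 10 genes were weakly expressed by comparison. Together they took 305 to 686 counts per library, so that counting error is part of the spread of most of them.

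Levels of different genes were compared as CPM per kilobase of exon. Shmt2 was the highest of the 10 in each group, at 19.8 ± 1.76 in CTRL, 15.2 ± 2.57 in SU_HX and 22.9 ± 2.33 in Chrysin (SD, n = 4 in each). Its range lay clear of the next gene, Mthfd2, in CTRL and Chrysin and overlapped it in SU_HX, where Mthfd2 stood at 8.78 ± 4.63 CPM per kilobase (SD, n = 4). Below these the CTRL order ran Shmt1, Pycr1, Psph, Mthfd1l, Phgdh, Aldh18a1 and Asns, from 2.35 to 0.754 CPM per kilobase, and each neighbouring pair overlapped. Aldh18a1 is placed here by its own row, at 1.11 CPM per kilobase; summed with the row LOC108348083 described further on, it stood at 1.35, above Phgdh at 1.13. Psat1 was last in each group, at 0.259 ± 0.196 in CTRL, 0.213 ± 0.189 in SU_HX and 0.121 ± 0.0559 CPM per kilobase in Chrysin (SD, n = 4 in each).

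**Figure D1:**
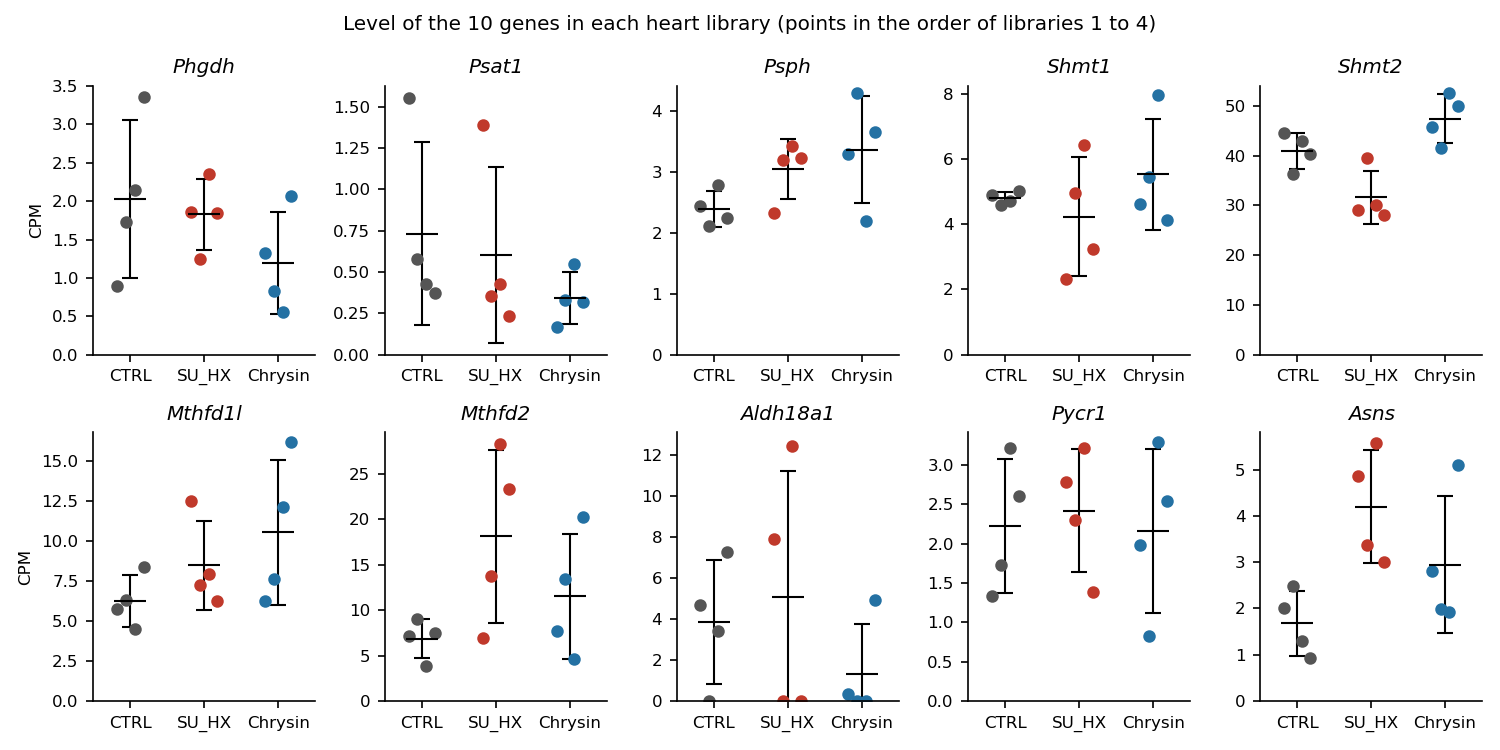
Level of each of the 10 genes in CPM (y axis) in the 12 libraries (points, libraries 1 to 4 from left to right in each group), with the mean (bar) and SD (whiskers) of each group. Asns was at 3.00 CPM or more in the 4 SU_HX libraries and at 2.49 CPM or less in the 4 CTRL libraries, and Shmt2 was at 41.6 CPM or more in Chrysin and at 39.5 CPM or less in SU_HX.

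In model hearts given vehicle, Asns and Mthfd2 were higher than in CTRL, each more than 2-fold, while Phgdh, Psph, Shmt1, Shmt2, Mthfd1l and Pycr1 did not pass the test. A gene is called here when edgeR's quasi-likelihood test gave a Benjamini-Hochberg adjusted p under 0.05 over the 12304 genes tested. By that rule 2 of the 9 members tested were higher in SU_HX, 0 were lower and 7 were not called. That is 22.2% of the members, against 30.7% called among all genes tested (16.0% higher and 14.7% lower). The share over all genes ran from 20% without SU_HX library 3, where 0 members were called, to 38.3% without SU_HX library 2, where 3 were called. With no filter on low counts it was 18.9%, with 1 member called. The median log2 fold change was 0.35 over the 9 members and 0.07 over all genes tested. In bulk tissue a difference in RNA per cell cannot be told apart from a difference in the number of cells of a type.

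Asns, the asparagine synthetase, had 2.00, 2.49, 1.29 and 0.932 CPM in CTRL libraries 1 to 4 and 4.87, 3.37, 5.57 and 3.00 CPM in SU_HX. Each SU_HX library was above each CTRL library; 32.6% of all genes tested had ranges that did not overlap in this comparison. The log2 fold change was 1.31 (SE 0.41, 2.48-fold) with an edgeR adjusted p of 0.0272. The counts behind it were 33 in CTRL and 79 in SU_HX, with exact Poisson 95% intervals of 22.7 to 46.3 and 62.5 to 98.5, which cover counting error only. Leaving out SU_HX library 3, CTRL library 3 or CTRL library 4 ended the call, with edgeR adjusted p of 0.0799, 0.0771 and 0.0754. Without SU_HX library 1 and Chrysin library 3 together the log2 fold change was 1.24 and the edgeR adjusted p 0.0400.

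Mthfd2, the mitochondrial folate dehydrogenase, had 7.11, 9.02, 3.86 and 7.46 CPM in CTRL and 6.96, 13.8, 28.3 and 23.3 CPM in SU_HX. SU_HX libraries 2, 3 and 4 were above every CTRL library, and library 1, the library rich in intron reads, lay within the CTRL range. The log2 fold change was 1.39 (SE 0.47, 2.62-fold) with an edgeR adjusted p of 0.0375. Without SU_HX library 1 and Chrysin library 3 it was 1.65, with an edgeR adjusted p of 0.00345. The call was lost by limma-voom (adjusted p 0.0770, with 30.4% of all genes called by that tool), without a filter on low counts (edgeR adjusted p 0.0580) and on leaving out any 1 of CTRL libraries 1, 2, 3 or 4 (edgeR adjusted p 0.0780, 0.0553, 0.109 and 0.0726), SU_HX libraries 3 or 4 (0.125 and 0.0836) or Chrysin library 2 (0.0503), while the log2 fold change stayed between 1.10 and 1.65. The authors' deposited table gave a fold of 2.62 with a false discovery rate of 0.0246 for Mthfd2, and a fold of 2.44 with 0.0264 for Asns. No other of the 10 genes was below 0.05 there in SU_HX against CTRL. Shmt2, picked on Chrysin, is left out of the comparisons with Chrysin, where none of the remaining genes was below 0.05.

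**Figure D2:**
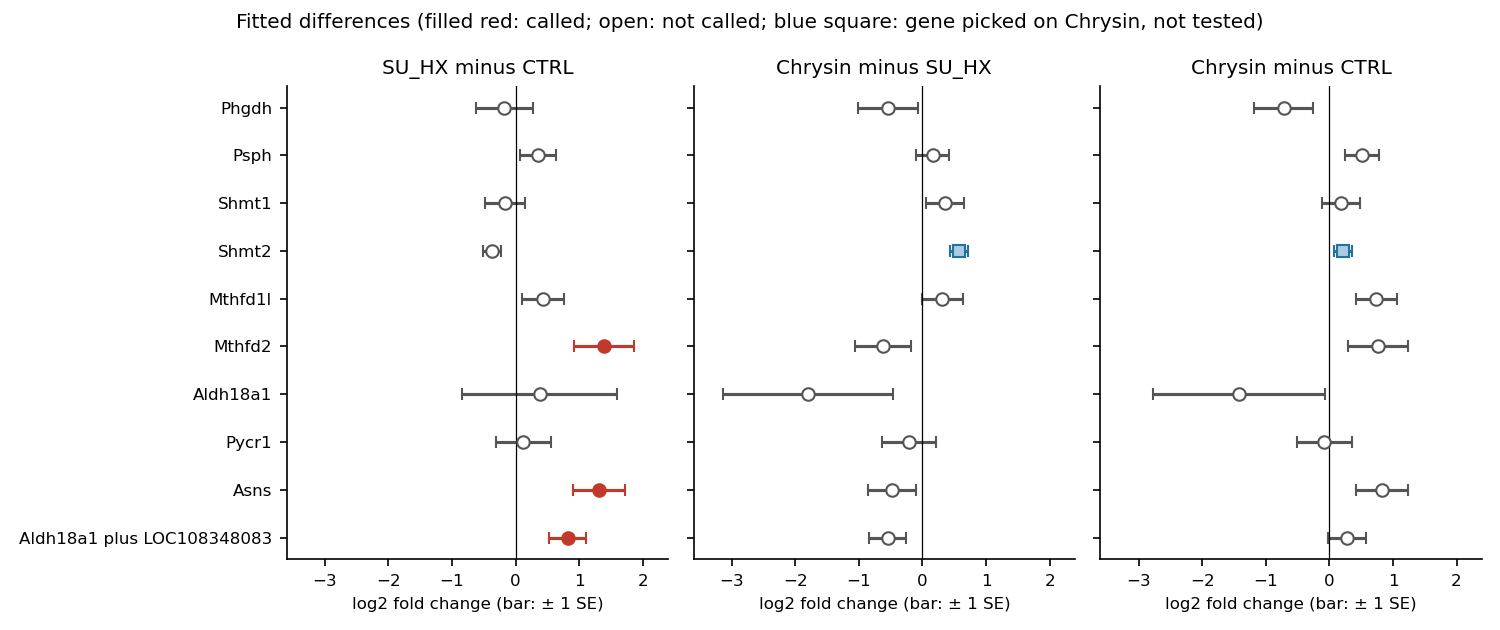
Fitted log2 fold change (x axis) with ± 1 SE for the 9 tested genes and for Aldh18a1 summed with LOC108348083, in each comparison. Filled red circles, for Mthfd2 (1.39), Asns (1.31) and the sum (0.82) in SU_HX minus CTRL, passed an adjusted p of 0.05; open circles did not; blue squares mark Shmt2, which was picked on its level in Chrysin.

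Of the serine synthesis genes, Phgdh, the entry enzyme, had 0.888, 1.73, 2.14 and 3.36 CPM in CTRL and 1.86, 1.24, 2.36 and 1.85 CPM in SU_HX. The SU_HX values all lay inside the CTRL range, and the log2 difference was -0.18 (SE 0.45). Psph, the phosphatase of the final step, had 2.44, 2.11, 2.79 and 2.24 CPM in CTRL and 2.32, 3.19, 3.43 and 3.23 CPM in SU_HX. SU_HX libraries 2, 3 and 4 were above the CTRL range, with a log2 difference of 0.35 (SE 0.28) and an edgeR adjusted p of 0.355. Psat1, the aminotransferase of the middle step, did not pass the filter on low counts. It had 7, 3, 2 and 2 counts in CTRL, 6, 2, 2 and 1 in SU_HX and 1, 2, 2 and 2 in Chrysin. The group sums, not scaled for library size, were 14, 11 and 7 counts, with exact Poisson 95% intervals of 7.65 to 23.5, 5.49 to 19.7 and 2.81 to 14.4. These intervals overlap, but they cover counting error only and are no test of a difference. In the fit with no filter on low counts Psat1 was not called in any comparison.

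Among the folate enzymes, Shmt1, the cytosolic hydroxymethyltransferase, had 4.89, 4.60, 4.72 and 5.03 CPM in CTRL and 2.32, 4.96, 6.43 and 3.23 CPM in SU_HX. The CTRL libraries were close to each other and the SU_HX libraries fell on both sides of them, with a log2 difference of -0.17 (SE 0.31) that became 0.02 without SU_HX library 1. Mthfd1l, the formate-releasing enzyme, had 5.77, 6.33, 4.50 and 8.39 CPM in CTRL and 12.5, 7.27, 7.93 and 6.24 CPM in SU_HX. Its highest value was in SU_HX library 1, and the log2 difference was 0.43 (SE 0.33, edgeR adjusted p 0.339). Shmt2, the mitochondrial hydroxymethyltransferase, had 44.6, 36.3, 42.9 and 40.3 CPM in CTRL and 29.0, 39.5, 30.0 and 28.0 CPM in SU_HX. SU_HX libraries 1, 3 and 4 were below every CTRL library and library 2 was inside the CTRL range. The log2 difference was -0.37 (SE 0.14), with an edgeR adjusted p of 0.0622 that misses the threshold. DESeq2, which called 34.2% of all genes, gave 0.0395, and without SU_HX library 2 edgeR gave -0.50 with an adjusted p of 0.0105. These SU_HX libraries are the same against which the level in Chrysin was picked, so the comparison with CTRL is not independent of the choice of the gene.

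Pycr1, the reductase of the final step of proline synthesis, had 1.33, 1.73, 3.22 and 2.61 CPM in CTRL and 2.78, 2.30, 3.21 and 1.39 CPM in SU_HX. The SU_HX values all lay inside the CTRL range, with a log2 difference of 0.12 (SE 0.43). Intervals of ± 1.96 SE ran from -0.71 to 0.96 for Pycr1, from -1.05 to 0.70 for Phgdh, from -0.19 to 0.89 for Psph, from -0.77 to 0.43 for Shmt1 and from -0.21 to 1.07 for Mthfd1l on the log2 scale. Changes of up to 2-fold are thus within or near these intervals for several of the genes that did not pass.

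Aldh18a1, the synthase that commits glutamate to proline, could not be read from its own row. In libraries 1 to 4 the row had 21, 0, 16 and 39 counts in CTRL, 34, 0, 58 and 0 in SU_HX and 2, 0, 0 and 31 in Chrysin. High and zero values alternated within each group, and 5 of the 12 libraries were at 0. Of its 621 exon reads, 11 (1.77%) were unique to the gene. The row LOC108348083, placed 552034 bases further along chromosome 1, had 605 exon reads, none of them unique. It had 0, 18, 0 and 0 counts in CTRL, 0, 32, 0 and 33 in SU_HX and 32, 40, 17 and 6 in Chrysin. Each library with 0 counts for one row had counts for the other, and libraries Chrysin 1 and 4 had counts in both. The rows lie at positions 259057402 to 259089642 and 259641676 to 259674425 of chromosome 1 in the deposited table, whose build is not given in the sources used here. Values of the Aldh18a1 row alone are therefore uncertain, and its log2 difference of 0.38 had an SE of 1.22.

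The sum of both rows, chosen after seeing the data, was 21, 18, 16 and 39 counts in CTRL, 34, 32, 58 and 33 in SU_HX and 34, 40, 17 and 37 in Chrysin. On the CPM scale the sum was 4.66, 3.45, 3.43 and 7.27 in CTRL, 7.89, 5.67, 12.4 and 7.62 in SU_HX and 5.61, 6.61, 4.66 and 5.88 in Chrysin. SU_HX libraries 1, 3 and 4 were above every CTRL library and library 2 was below CTRL library 4. The log2 fold change of the sum was 0.82 (SE 0.29, 1.77-fold) with an edgeR adjusted p of 0.0485. With the sum in place of the row, 3 of the 9 members tested were called higher, where 30.7% of all genes were called. No fit of the sum that leaves out a library was run.

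**Figure D3:**
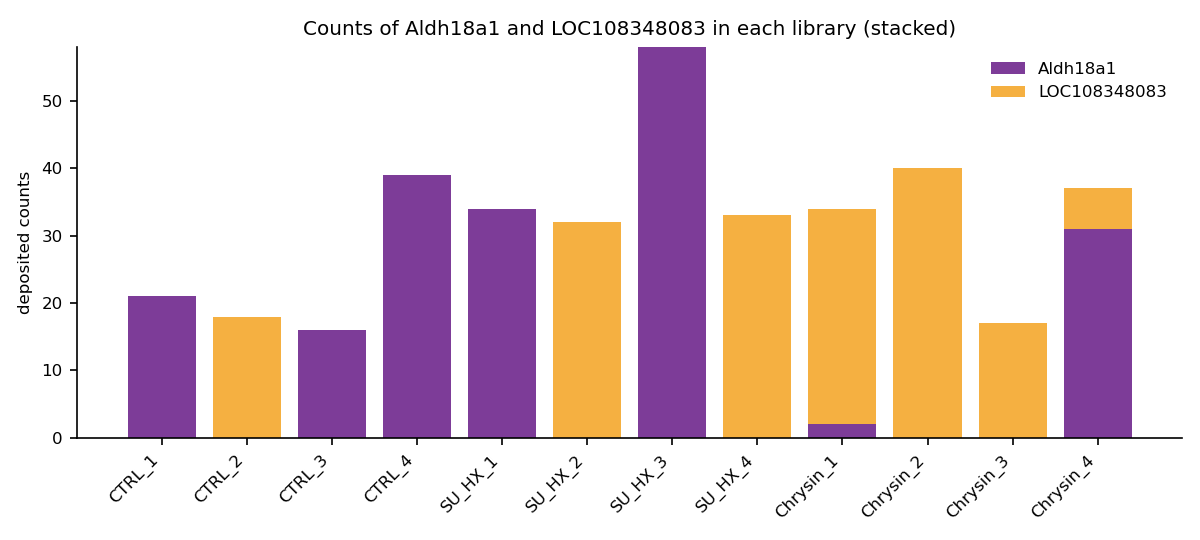
Deposited counts (y axis) of Aldh18a1 (purple) and LOC108348083 (orange), stacked, in each of the 12 libraries (x axis). In 10 of the 12 libraries all the counts fell to a single row, and the sum ran from 16 to 58 counts.

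With chrysin, Shmt2 stood higher than in SU_HX by the choice of the gene, and none of the other members tested passed. The count called was 0 of 8 members against SU_HX, where 0% of the 12304 genes passed edgeR's test, 1002 genes (8.14%) had an unadjusted p under 0.05, DESeq2 called 2 and limma-voom 0. None of the 8 members had an unadjusted p under 0.05, and their adjusted p by edgeR ran from 0.591 to 0.845. Shmt2 had 45.7, 41.6, 52.7 and 49.9 CPM in Chrysin libraries 1 to 4, against 29.0, 39.5, 30.0 and 28.0 CPM in SU_HX. The lowest Chrysin value was above the highest SU_HX value, by a margin of 41.6 to 39.5 CPM, and 2.30% of all genes tested had ranges that did not overlap. Shmt2 was picked for its higher level in Chrysin, so that share and the fitted values that follow are no test of it. Its log2 difference was 0.58 (SE 0.14), and it ran from 0.49 to 0.71 over the 22 alternatives, with 0.49 without SU_HX library 1 and Chrysin library 3. Against CTRL, whose range of 36.3 to 44.6 CPM overlaps that of Chrysin, the log2 difference was 0.21 (SE 0.14). Library 3 of Chrysin, the one with little Nppa, had the highest Shmt2 level of the 12.

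The genes called in SU_HX had intermediate means in Chrysin, with wide spread. Asns had 2.80, 1.98, 1.92 and 5.09 CPM in Chrysin, of which library 4 was within the SU_HX range and the others were below it. The log2 difference was -0.48 (SE 0.38) against SU_HX and 0.83 (SE 0.41) against CTRL, with edgeR adjusted p of 0.617 and 0.220. Mthfd2 had 7.75, 13.4, 4.66 and 20.2 CPM in Chrysin, with libraries 1 and 3 inside the CTRL range and libraries 2 and 4 above it. The log2 difference was -0.62 (SE 0.44) against SU_HX and 0.77 (SE 0.47) against CTRL, with edgeR adjusted p of 0.591 and 0.326. Both comparisons share libraries with SU_HX minus CTRL, so a value between the other groups is no independent sign of a return. Their intervals of ± 1.96 SE against SU_HX, from -1.22 to 0.26 for Asns and from -1.49 to 0.24 for Mthfd2, include both no difference and a difference as large as that between SU_HX and CTRL for Mthfd2.

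The other members had no call in Chrysin. Against CTRL the count was 0 of 8, where 8.69% of all genes (1069) were called by edgeR. That background was 303 to 365 genes on leaving out CTRL library 1, 2, 3 or 4 or Chrysin library 1, 2 or 4, and 2092 on leaving out SU_HX library 1 or Chrysin library 3, with 0 members called each time. Of the 8 members 1 had an unadjusted p under 0.05, as did 25.9% of all genes. That gene was Mthfd1l, with 6.27, 7.60, 12.1 and 16.2 CPM in Chrysin, where libraries 3 and 4 were above every CTRL library. Its log2 difference from CTRL was 0.74 (SE 0.32, edgeR adjusted p 0.165). Phgdh was at 1.32, 0.826, 0.549 and 2.07 CPM in Chrysin, with libraries 2 and 3 below every CTRL library and a log2 difference of -0.72 (SE 0.46, edgeR adjusted p 0.349). Psph was at 3.30, 4.30, 2.20 and 3.66 CPM, Shmt1 at 4.62, 5.45, 7.96 and 4.13 CPM and Pycr1 at 1.98, 0.826, 3.29 and 2.54 CPM. All 3 overlapped both other groups, with log2 differences from CTRL of 0.51, 0.18 and -0.08. The sum of Aldh18a1 and LOC108348083 differed by -0.55 (SE 0.29) from SU_HX and by 0.28 (SE 0.30) from CTRL, with edgeR adjusted p of 0.557 and 0.598.

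Unique reads of Mthfd2 in exons and introns were examined after the levels were seen. The exon part is not independent of the levels, with 736 unique exon reads over all libraries beside 750 counts. Of its unique reads, 48.5%, 55.3%, 54.5% and 53.4% lay in exons in CTRL, 49.2%, 76.3%, 74.2% and 81.0% in SU_HX and 65.3%, 75.2%, 61.5% and 87.9% in Chrysin. All 4 Chrysin libraries and SU_HX libraries 2 to 4 were above every CTRL library, and SU_HX library 1 was within the CTRL range. Chrysin exceeded CTRL by 19.6 percentage points, with a two-sided exact permutation p of 0.0286, the smallest that 4 libraries against 4 allow; adjusted over the 13 such tests on members with enough reads it was 0.371. SU_HX exceeded CTRL by 17.2 percentage points (exact permutation p 0.114). Among 11364 genes with enough reads, the share was higher without overlap in 5.83% for Chrysin minus CTRL and in 3.25% for SU_HX minus CTRL. Over all nuclear genes the share in exons was 36.6% in SU_HX library 1 and 50% to 57.4% in the others. Subtracting each library's own overall share, a further version of the test, gave exact permutation p of 0.0286 in both comparisons with CTRL. That is again the smallest possible value, and it was not adjusted over the 13 tests, so no call is drawn from it. Unique intron reads of Mthfd2 were 6.10 ± 1.99 on the CPM scale in CTRL, 6.61 ± 2.51 in SU_HX and 3.47 ± 0.862 in Chrysin (SD, n = 4 in each).

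**Figure D4:**
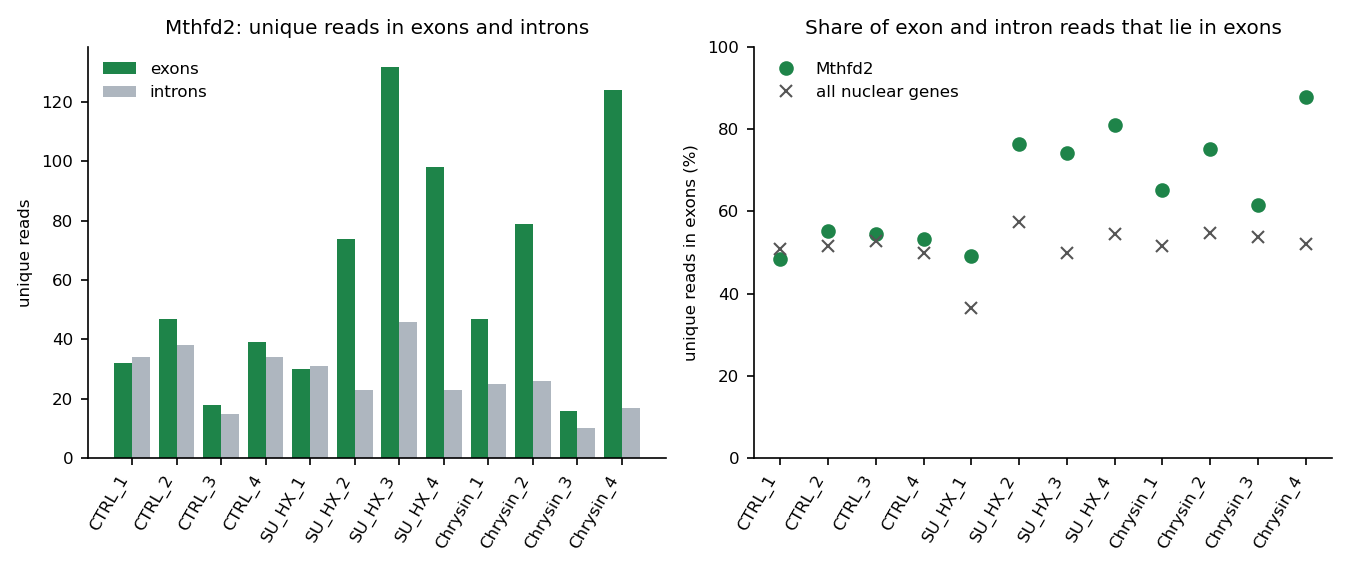
Left, unique reads of Mthfd2 (y axis) in exons (green) and introns (grey) in each library; right, the share of its unique reads in exons (circles, %) beside the share over all nuclear genes (crosses). The Mthfd2 share was 48.5% to 55.3% in CTRL and 61.5% to 87.9% in Chrysin.

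Correlation between members across libraries was weak at the median. Over the 28 pairs of the 8 tested genes other than Aldh18a1, Pearson's r of log2 CPM over the 12 libraries had a median of 0.05 and ran from -0.46 to 0.65, as a description of points that share libraries and groups. Counts were low, at 2 to 18 per library for Phgdh and 5 to 16 for Pycr1, and counting error weakens r. Whether the members move together was therefore not tested. The genes whose log2 CPM followed Mthfd2 most closely, of 9687 compared over 12 libraries, were Slc41a2 (r 0.95), a magnesium transporter, Tns3 (0.94), a focal adhesion protein, and Tmed3 (0.94), a cargo protein of the secretory path. For Shmt2 they were Tmem126b (0.90), an assembly factor of respiratory complex I, Gclm (0.87), the regulatory subunit of glutathione synthesis, and Cnot7 (0.85), a deadenylase. For Phgdh they included Tmtc1 (0.85) and Pdlim2 (0.84), and for the Aldh18a1 row, whose counts are uncertain, they were Zfp668 (0.86), Sdc4 (0.85) and Nthl1 (0.82). Picking the highest r of 9687 genes over 12 libraries gives high values by itself. These genes are thus a description, and a link to the members was not tested.

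Other genes of the same routes changed in both directions in SU_HX. Of 24 tested folate enzymes and carriers outside the 10 genes, 3 rose, 4 fell and 17 were not called (29.2%, against 30.7% of all genes). Sfxn3, of a family of mitochondrial serine carriers, rose by a log2 of 0.92 (SE 0.18), from 26.7 ± 2.66 to 50.8 ± 10.2 CPM (SD, n = 4). Fpgs, which adds the glutamates that hold folate in cells, rose by 0.50, and Folr2, a folate receptor of macrophages, by 0.93. Slc19a1, the reduced folate carrier, had a log2 change of -0.90, Sfxn2 one of -1.36, Mtrr, which reactivates methionine synthase, one of -0.65 and Mthfd1, the cytosolic counterpart of the mitochondrial folate enzymes, one of -0.56. Among 12 tested genes of serine and glycine use and transport, 2 rose and 4 fell (50%). Those higher were Sptlc2, of sphingolipid synthesis, at 1.43, and Slc1a5, a carrier of neutral amino acids, at 1.26. Those lower were Gamt, of creatine synthesis, at -1.57, Slc25a38, the mitochondrial glycine carrier, at -0.98, Slc6a9, a glycine transporter, at -0.98 and Slc38a2, which takes up small neutral amino acids, at -0.82.

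Around proline and asparagine, 9 of 21 tested genes of proline, glutamate and aspartate metabolism were called (42.9%, against 30.7% of all genes), 2 higher and 7 lower. Ass1, which joins aspartate to citrulline, rose by 2.41 on the log2 scale and Slc25a22, a mitochondrial glutamate carrier, by 1.23. The lower genes included Gpt at -2.44, Got2 at -1.52 and Slc25a12 at -1.14, 2 transaminases and an aspartate-glutamate carrier. Of 11 tested genes of fibrillar collagens and their processing, 8 rose and 0 fell (72.7%, against the same 30.7%), with a median log2 fold change of 1.07. P4ha1, a prolyl hydroxylase, rose by 1.59, Col5a2 by 1.89 and Col11a1 by 4.33, the last with an SE of 1.22 and an edgeR adjusted p of 0.0174. The collagen count fell to 2 without CTRL library 1 or SU_HX library 3 and to 3 without CTRL library 2 or 3. With only the groups compared it was 4. The proline, glutamate and aspartate count was 5 without CTRL library 1 or 4 and 4 without SU_HX library 3. The share called over all genes was also lower in these fits. It was 22.2%, 22.3%, 21.3% and 23.7% without CTRL libraries 1, 2, 3 and 4 in turn. Without SU_HX library 3 that share was 20%, and with only the groups compared 26.4%.

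In the list of ATF4 and the integrated stress response, 7 of 25 tested genes rose and 2 fell (36.0%, against 30.7% of all genes). The median log2 fold change was 0.23. Nupr1, a stress-induced chromatin protein, rose by 2.92, Gdf15, a stress cytokine, by 3.30 and Slc7a1, a carrier of cationic amino acids, by 1.09. Stc2, a secreted glycoprotein, had a log2 change of -3.04 and Herpud1, of endoplasmic reticulum stress, one of -0.80. Atf4 itself was at 87.0 ± 4.38 CPM in CTRL and 89.6 ± 17.1 CPM in SU_HX (SD, n = 4), with an edgeR adjusted p of 0.841. Among 14 tested candidate regulators (28.6% called) Myc rose by 1.78 and Nfe2l2 by 0.65, while Rptor and Tfam had log2 changes of -0.51 and -0.70. Of 20 cytosolic aminoacyl-tRNA synthetases (10% called), Wars rose by 0.43 and Qars had a change of -0.57. In purine and thymidylate synthesis 2 of 19 tested genes rose and 5 fell (36.8%): Prps2 and Adss were higher by 1.08 and 0.95, and Adssl1, Ppat, Dhodh, Adsl and Prps1 had changes of -2.40, -0.93, -0.92, -0.79 and -0.77. In the list named for the methionine cycle and transsulfuration (26.7% called) 2 of 15 rose, Ahcyl2 (0.63) and Enoph1 (0.58), and 2 fell, Amd1 (-1.33) and Adi1 (-1.0). Leaving out CTRL library 1 or 3 brought the ATF4 count to 5, and leaving out CTRL library 3 or SU_HX library 3 the methionine count to 2. The share called over all genes also fell, to 22.2% without CTRL library 1 and 21.3% without CTRL library 3. Without SU_HX library 3 that share was 20%. At the other end, leaving out 1 library gave up to 12 called genes in the ATF4 list and up to 6 in the methionine list. The synthetase count of 2 went to 5 without SU_HX library 1, where 33.6% of all genes were called. It went to 1 without CTRL libraries 1, 2, 3 or 4 or SU_HX libraries 3 or 4, where 20% to 27.6% were. In Chrysin minus CTRL the 9 lists had 0 to 3 called genes each, 0 to 6 on leaving out 1 library and 0 to 9 under the other alternatives. In Chrysin minus SU_HX none of these lists had a called gene by edgeR, as for all genes.

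**Figure D5:**
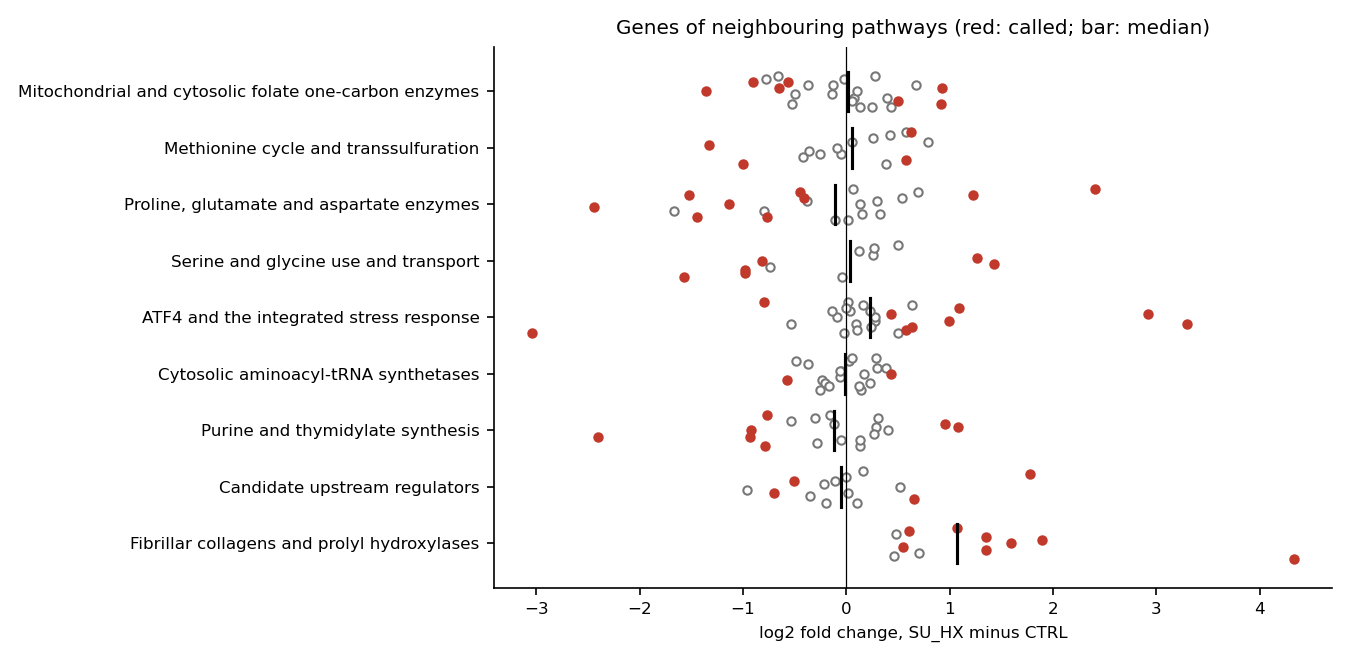
Log2 fold change in SU_HX minus CTRL (x axis) of each tested gene of the 9 lists, with called genes in red, others open, and the median of each list as a black bar. The collagen list has its median at 1.07 and the other lists between -0.12 and 0.23.

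Cell markers moved in the same comparison as Asns and Mthfd2, where 16.0% of all genes tested were called higher and 14.7% lower. Of 7 macrophage and monocyte markers, 7 were higher in SU_HX; their sum was 121 to 169 CPM in CTRL, 347 to 663 in SU_HX and 185 to 441 in Chrysin. Of 7 fibroblast markers 5 were higher, with sums of 1680.6 to 2506.4 CPM in CTRL and 3125.7 to 9016.2 in SU_HX. Of 4 erythroid markers tested 4 were higher, with sums of 60.3 to 408 CPM in CTRL and 1031.3 to 1947.5 in SU_HX. Lung epithelial markers summed to 1.07 to 3.84 CPM in CTRL, 12.9 to 63.2 in SU_HX and 6.11 to 17.6 in Chrysin, and 4 of 4 tested were higher in SU_HX. Of 7 cardiomyocyte markers 3 were lower and 0 higher, with sums of 60713.2 to 68015.0 CPM in CTRL and 13750.2 to 26908.7 in SU_HX. Myh6 made up most of the CTRL sum, with means of 40499.9 CPM in CTRL and 4009.5 CPM in SU_HX. Tnni3 and Pln were also called lower. Actn2, Tnnt2, Ryr2 and Mybpc3 were not called, with log2 differences of -0.61, -0.47, -0.69 and -0.24. Of the remaining lists tested, 2 of 3 atrial, 1 of 4 endothelial and 2 of 2 skeletal muscle markers were higher, 1 of 3 ventricular markers was lower, and 0 of 4 smooth muscle and 0 of 5 cycling-cell markers were called. The hepatocyte list summed to 3.25 to 15 CPM in SU_HX, with Ttr at 8.51 ± 2.33 CPM in CTRL and 9.35 ± 5.31 in SU_HX (SD, n = 4), and the adipocyte list to 1.62 to 3.64 CPM in SU_HX, with Cfd at 1.95 ± 0.392 CPM in CTRL and 2.61 ± 0.982 in SU_HX (SD, n = 4). Neither Ttr nor Cfd was called, and Alb and Cps1 of the first list and Cidec of the second were at 0 in each library. The part of these markers in the levels of Asns and Mthfd2 was not tested.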

How the data were processed

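RNA was prepared from heart tissue with ISOGEN plus, per the labels' protocols, in 12 libraries, 4 in each of CTRL, SU_HX and Chrysin. The authors deposited 1 table of 32623 genes; per the file headers it holds an expression value per gene and library, which is a whole-number count, with total exon, unique exon and unique intron reads as further counts. The headers spell the chrysin libraries slightly differently from the labels. The authors' own test of each pair of groups, also deposited, gives a p-value, a false discovery rate p-value and a signed fold change, a score negative for a fall. No aligner, build or annotation is named in the sources used here. Starts in the table count from 0, as checked on 3157 genes of 1 exon, and 1 was added.

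Counts were tested with edgeR 4.0.16 in R 4.3.3 (TMM, filterByExpr by group, robust quasi-likelihood fit, all 12 libraries, no covariate), two-sided, with Benjamini-Hochberg adjustment over 12304 genes; the script was checked on simulated counts. SEs were derived as log2 fold change over root F. CPM values use TMM-scaled totals. Total counts ran from 3997306 to 6009798 per library. No 2 libraries of a group agreed within sampling noise (smallest chi-square per degree of freedom 3.31). The members, the lists, the marker genes and the tests were chosen with earlier results of these data known; the sum of Aldh18a1 with LOC108348083, the exon share and the motifs were chosen after seeing the data. Exon shares were tested on genes with at least 10 unique reads in each library. All 10 genes are named; of each list the rule takes called genes of SU_HX minus CTRL, all where 5 or fewer were called in a direction and otherwise the 3 with the smallest p. Atf4 was named after its value was seen. Genes of a like pattern needed a mean of at least 5 CPM and an official symbol, and 1 of them is not reported here. Listed symbols that the table does not hold were not analysed here. As alternatives, DESeq2 1.42.0 and limma-voom (limma 3.58.1) were run, RLE factors replaced TMM, the filter was dropped or set to a mean of 5 CPM, and fits used unique reads, the groups compared alone, a replicate block or fewer libraries. Promoter sequences are from RefSeq, GRCr8; exact tests used scipy 1.17.1.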

Additional observations from a re-analysis of the deposited data

Results flagged for a closer look

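Psat1 had 1.39 CPM in SU_HX library 1, where the nearest of the other SU_HX libraries had 0.428 CPM; the gap was 0.83 of the group's range. It rests on 6 counts, in the library with the most intron reads. The Aldh18a1 row had 4.93 CPM in Chrysin library 4, where the nearest Chrysin library had 0.33 CPM, a gap of 0.933 of the range; with LOC108348083 added the group ran from 4.66 to 6.61 CPM and no library stood out. These are 2 of 33 groups of 4 examined, and chance flags about 1 in 20. The share of unique Mthfd2 reads in exons averaged 72.5% in Chrysin and 52.9% in CTRL, with no overlap between the groups. Its exon reads are nearly the same reads as the counts tested, so it is not independent of them. Of 11364 genes with enough reads, 5.83% were higher without overlap in that comparison. The exact permutation p of 0.0286 became 0.371 when adjusted over the 13 tests.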

How the results depend on the processing

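In SU_HX minus CTRL, 1 member was called in place of 2 without a filter (Asns), with a mean of at least 5 CPM (Mthfd2, of 3 members left), by limma-voom (Asns) and with the replicate block (Mthfd2; Asns then had an edgeR adjusted p of 0.0600). Leaving out 1 library gave 0 to 3 members, with 0 without CTRL library 3, CTRL library 4 or SU_HX library 3. DESeq2 also called 3, adding Shmt2, whose comparison with CTRL is not independent of the choice of the gene. Asns was called in 17 of 21 alternatives (adjusted p 0.0149 to 0.0799) and Mthfd2 in 13 of 22 (0.00345 to 0.125). In both comparisons with Chrysin 0 members were called under each alternative run. Same-numbered libraries did not deviate together (r from -0.382 to 0.0745), so the numbers were not taken as pairs.

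Changes of sign were all among genes not called. Without SU_HX library 1 and Chrysin library 3, Shmt1 was at 0.02 in SU_HX minus CTRL, -0.05 in Chrysin minus SU_HX and -0.03 in Chrysin minus CTRL. Aldh18a1 was at -0.97 by limma-voom in SU_HX minus CTRL and at 0.28 in Chrysin minus CTRL when summed with LOC108348083. Leaving out 1 library moved SU_HX minus CTRL from -0.41 to 0.19 for Phgdh, -0.43 to 0.02 for Shmt1, -0.63 to 0.91 for Aldh18a1 and -0.05 to 0.33 for Pycr1; Chrysin minus SU_HX from -0.41 to 0.08 for Pycr1; and Chrysin minus CTRL from -0.01 to 0.32 for Shmt1 and -0.30 to 0.20 for Pycr1. The cause was not tested. Of 525 tested values of single members, 493 kept their direction and side of the threshold, 16 changed sign, 13 lost and 3 gained a call; 44 values of Shmt2 in comparisons with Chrysin had no test and moved by less than the spread between libraries.

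Counts called per list in SU_HX minus CTRL ran, over all alternatives, from 5 to 9 for folate enzymes, 2 to 6 for the methionine cycle, 4 to 11 for proline, glutamate and aspartate, 5 to 7 for serine and glycine use, 5 to 12 for ATF4, 1 to 5 for tRNA synthetases, 6 to 9 for purines, 3 to 6 for regulators and 2 to 10 for collagens; the collagen count was 4 with the replicate block. In Chrysin minus CTRL they ran from 0 to 6 for folate enzymes, 0 to 3 for the methionine cycle, 2 to 9 for proline, glutamate and aspartate, 1 to 5 for serine and glycine use, 2 to 9 for ATF4, 0 to 3 for tRNA synthetases, 0 to 6 for purines, 0 to 5 for regulators and 1 to 3 for collagens. Over all genes, Chrysin minus CTRL gave 1069 calls, against 1733 by DESeq2, 2599 with only the groups compared, 624 with the replicate block and 3564 without both libraries, and 303 to 2092 on leaving out 1; the higher share was 54.3%, and 39.4% by limma-voom. In SU_HX minus CTRL the share called over all genes ran from 18.9% without a filter to 38.3% without SU_HX library 2. Low counts limit Psat1, Phgdh, Pycr1 and Asns.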
